A study of Mus musculus with 6 samples.

Results

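The genes described here encode mitochondrial ribosomal proteins. They are the protein-coding genes of the count tables whose mouse symbol is Mrpl or Mrps followed by a digit, with the 5 pseudogenes whose names contain -ps left out. The rule used names alone and found 78 genes among 52636 genes in the tables, of which 21896 were protein-coding. Of the 78, 50 tested genes belong to the large subunit and 26 to the small subunit as structures of the mammalian mitochondrial ribosome place them. Mrps36 belongs to neither, and Mrpl53 was the 1 gene that could not be tested.

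RNA from parotid salivary gland, whose serous acinar cells secrete a watery, amylase-rich saliva, was sequenced from 6 samples of FVB mice aged 28 days. The irradiated group (3 samples) received 1 radiation dose of 5 Gy, and the untreated group (3 samples) is its control. The protocol text repeats this dose for every sample, and only the irradiated group is taken to have received it. The labels name no transgene, allele or second agent, and give no interval between irradiation and tissue collection. The mark D5 stands in the names of the irradiated tables; its meaning is not given in the sources used here, and no time or dose was taken from it. Nor do they state that the samples came from different mice; p-values therefore set differences against the variation among these samples only, which may be technical.

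Mitochondria have their own ribosomes, which translate the few proteins that mitochondrial DNA encodes, all of them subunits of the respiratory chain and ATP synthase. The ribosomal RNAs come from mitochondrial DNA, while every protein of the ribosome is encoded in the nucleus, made in the cytosol and imported. Some of these proteins have bacterial relatives; others are found in mitochondria only. In salivary glands the striated duct cells are rich in mitochondria, and secretion uses ATP for ion transport.

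The promoters of these nuclear genes are known for binding sites of NRF1, of ETS-family factors such as GABPA, and of YY1, and the sequences below show what was searched. A window of 250 bases before to 50 bases after the start was taken from RefSeq's table (build GRCm38.p6) for 69 of the 78 genes, in 75 windows. The motifs were CCGGAAG for ETS factors, AAGATGGCG for YY1 and, for NRF1, the palindrome that extends CGCATGCG by a G before and a C after it, each read on both strands. The 250 upstream bases of 6 genes are printed 5′ to 3′ along the gene's own strand, with matches in capitals. Mrpl32 and Mrpl39 hold the NRF1 letters, Mrpl43 holds the ETS letters at 2 places, Mrps18a holds them once close to the start, and Mrpl36 holds the YY1 letters on the opposite strand. Mrpl14, the gene with the smallest p in the comparison of the groups, holds none of the 3. The stretches lie at chr13:14613038-14613287, minus strand (Mrpl32); chr16:84735245-84735494, minus strand (Mrpl39); chr19:45006443-45006692, minus strand (Mrpl43); chr17:46110754-46111003, plus strand (Mrps18a); chr13:73330759-73331008, plus strand (Mrpl36); and chr17:45686099-45686348, plus strand (Mrpl14).
Mrpl32: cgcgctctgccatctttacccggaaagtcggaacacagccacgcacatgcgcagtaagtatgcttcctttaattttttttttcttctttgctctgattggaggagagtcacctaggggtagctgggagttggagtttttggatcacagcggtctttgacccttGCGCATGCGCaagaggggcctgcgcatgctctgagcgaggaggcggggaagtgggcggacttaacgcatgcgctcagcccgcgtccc
Mrpl39: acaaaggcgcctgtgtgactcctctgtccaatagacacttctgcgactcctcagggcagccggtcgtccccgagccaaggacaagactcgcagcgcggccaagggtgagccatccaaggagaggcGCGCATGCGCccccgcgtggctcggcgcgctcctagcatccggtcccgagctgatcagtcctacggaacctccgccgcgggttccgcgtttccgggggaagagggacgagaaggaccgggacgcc
Mrpl43: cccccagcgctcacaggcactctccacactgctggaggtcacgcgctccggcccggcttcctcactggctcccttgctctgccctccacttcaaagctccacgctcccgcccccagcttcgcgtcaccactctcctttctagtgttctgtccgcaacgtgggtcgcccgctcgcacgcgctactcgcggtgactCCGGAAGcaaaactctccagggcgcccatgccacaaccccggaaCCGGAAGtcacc
Mrps18a: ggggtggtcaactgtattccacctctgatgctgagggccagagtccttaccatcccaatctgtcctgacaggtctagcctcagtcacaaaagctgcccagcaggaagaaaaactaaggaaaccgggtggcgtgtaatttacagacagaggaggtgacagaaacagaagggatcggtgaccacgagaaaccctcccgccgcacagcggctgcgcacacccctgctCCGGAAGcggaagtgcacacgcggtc
Mrpl36: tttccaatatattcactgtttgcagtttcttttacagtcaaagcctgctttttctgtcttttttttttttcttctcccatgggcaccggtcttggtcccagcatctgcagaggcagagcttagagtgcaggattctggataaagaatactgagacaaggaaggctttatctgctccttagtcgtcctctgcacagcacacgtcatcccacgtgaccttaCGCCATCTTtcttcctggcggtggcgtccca
Mrpl14: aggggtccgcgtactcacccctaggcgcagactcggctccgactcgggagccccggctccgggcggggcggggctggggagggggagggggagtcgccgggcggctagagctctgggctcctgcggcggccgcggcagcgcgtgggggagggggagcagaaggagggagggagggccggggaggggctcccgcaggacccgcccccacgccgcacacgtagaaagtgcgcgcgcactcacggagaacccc

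The ETS letters were in 34.7% of the windows of mitochondrial ribosomal protein genes (26 of 75). They were in 16.9% of the 12162 windows of other tested genes and in 8.86% of all 32851 windows of the table. The YY1 letters were in 10.7% (8 of 75), against 2.9% of the windows of other tested genes and 1.4% of all windows. The NRF1 letters were in 4.0% (3 of 75, in Mrpl9, Mrpl32 and Mrpl39), against 1.97% of the windows of other tested genes and 0.971% of all windows. With 1 letter less at each end the order of the 3 sets stayed the same for ETS (CGGAA: 77.3%, 46.9% and 29.9%), for YY1 (AGATGGC: 16%, 6.93% and 6.4%) and for NRF1 (CGCATGCG: 9.33%, 3.63% and 1.87%). Of the 69 genes, 35 held at least 1 of the 3 motifs. The ETS letters end in AAG and the YY1 letters begin with it, so a match to each can share these bases. A match is a run of letters, not a bound site, and these data measure no binding.

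**Figure D1:**
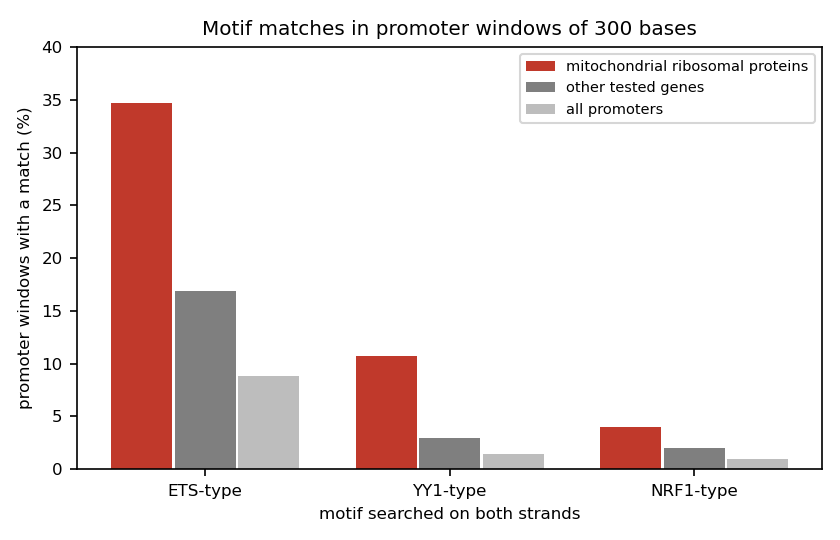
Share of promoter windows (%, 300 bases each) with at least 1 match to the ETS, YY1 or NRF1 letters, in windows of mitochondrial ribosomal protein genes (75 windows), of other tested genes (12162) and of the whole RefSeq table (32851). For ETS the bars stand at 34.7%, 16.9% and 8.86%.

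Gene counts totalled between 7108359 (irradiated sample 2) and 14454646 in irradiated libraries and between 12722189 and 15036193 in untreated libraries. Irradiated sample 2 stood apart, with 10.01% unaligned reads where the remaining 5 had 3.75% to 4.33%. It also had 184 reads in the low-quality class, against at least 342749 in each of the others. Cdkn1a, a p53 target induced by radiation, was at 21.7, 25.9 and 18.0 CPM (counts scaled to library size by TMM) in irradiated libraries and at 2.14, 1.83 and 2.26 CPM in untreated ones. Summed CPM of 6 acinar markers was 359875 to 455640 in irradiated and 397178 to 476657 in untreated libraries. Amy1 and Bpifa2, which encode secreted saliva proteins, carried most of this sum. Over all genes that passed the filter on low counts (12885), edgeR's quasi-likelihood test called 84 higher and 45 lower in irradiated glands at an adjusted p under 0.05, and 259 and 22 with library totals alone.

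Transcripts of the mitochondrial ribosomal proteins were present at low to moderate levels in both groups. The median gene had 144, 75 and 106.5 counts in the 3 irradiated libraries and 125, 120.5 and 143.5 counts in the 3 untreated ones. Together the genes took 0.0812%, 0.0863% and 0.0748% of all gene counts in irradiated libraries and 0.0795%, 0.0767% and 0.0821% in untreated libraries, so the groups overlapped on this scale of library totals. For levels between genes, counts were divided by the length of the principal transcript and scaled to the same total in each library (TPM). Mean TPM over the 6 libraries ran from 0.756 to 40.8 with a median of 6.95, against 3.45 over all tested genes. Within the family, 48 of 77 genes lay within 2-fold of that median. The median was 8.11 TPM in the large subunit and 5.70 TPM in the small subunit.

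The 5 genes with the highest level per length were Mrps21, Mrpl52, Mrpl42, Mrpl54 and Mrpl30. Mrps21, the relative of bacterial S21, averaged 39.7 ± 5.82 TPM in irradiated and 41.8 ± 7.08 TPM in untreated glands (SD, n = 3 each). Mrpl52, a large-subunit protein found in mitochondria only, averaged 38.9 ± 5.33 TPM in irradiated and 41.1 ± 5.42 TPM in untreated glands. Mrps21, Mrpl52 and Mrpl42 overlapped one another within their SDs, and a step to Mrpl54 (25.01 TPM over the 6 libraries) and Mrpl30 (24.4 TPM) followed. The lowest were Mrps23 (0.756 TPM), Mrps25 (1.10 TPM), Mrpl19 (1.21 TPM), Mrpl1 (1.69 TPM) and Mrpl35 (2.04 TPM). Mrps25 shares 69.8% of its exon bases with Nr2c2 on the opposite strand and Mrpl19 shares 36.0% with Gcfc2, also on the opposite strand, so reads in those stretches may not have been given to them. With the longest transcript in place of the principal one, Mrpl42 stood at rank 29 in place of 3 and Mrpl23 at rank 54 in place of 8. The order of levels was similar in both groups, with a Spearman correlation of 0.976 between irradiated and untreated mean TPM over 77 genes, which share libraries, transcript lengths and base composition.

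**Figure D2:**
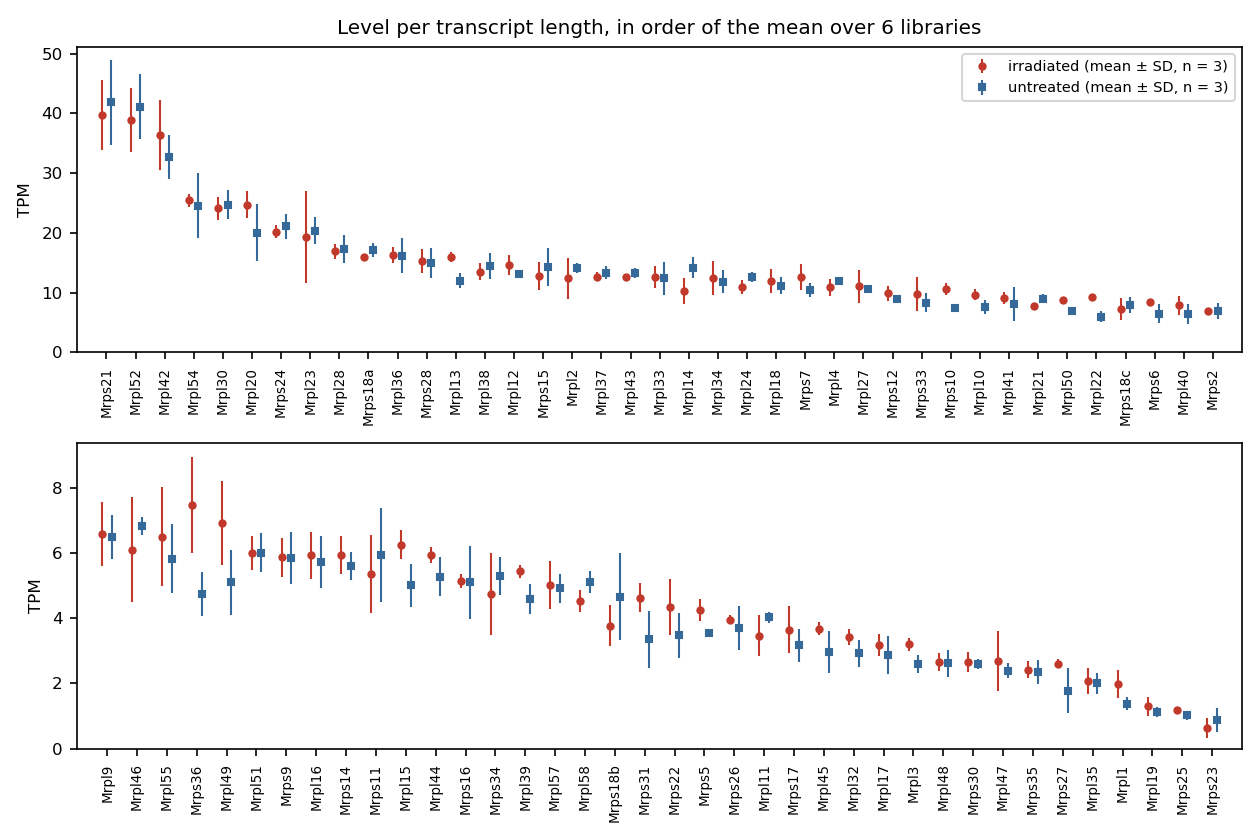
Level of each of the 77 tested genes in TPM, in order of the mean over 6 libraries, as mean ± SD of 3 irradiated (circles) and 3 untreated (squares) libraries; the lower row has its own axis. Mrps21 stands highest at 40.8 TPM and Mrps23 lowest at 0.756 TPM over the 6 libraries.

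Mrpl53 had 0 counts in all 6 libraries. It encodes a large-subunit protein found in mitochondria only and lies at chr6:83109040-83109939 (mm10, plus strand). In the GENCODE M21 annotation, 88.0% of its exon bases also belong to the same-strand protein-coding model Gm42688, which had 42 counts over the 6 libraries. Reads that fall in exons of both models cannot be given to either gene without a rule for ambiguous reads, so its 0 does not measure its expression. Exon bases were shared with another gene model by 33 of the 78 genes, and by at least 10% of bases in 17 of them.

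The comparison of irradiated with untreated glands asked whether the transcripts of the mitochondrial ribosome differed after radiation. Counts were scaled by TMM, which sets the bulk of genes equal between libraries, and tested with edgeR. No mitochondrial ribosomal protein gene passed an adjusted p of 0.05 in either direction (0 of 77), where 0.652% of all tested genes were called higher and 0.349% lower. DESeq2 (0.939% higher and 0.543% lower over all genes) and limma-voom (0.691% and 0.388%) also called 0 of 77. At an unadjusted p under 0.05, 10 of 77 genes were lower (13%, against 7.46% of all genes) and 0 were higher (against 7.51% of all genes). Of the 77 genes, 50 belong to the large subunit and 26 to the small one, where standard errors were larger (median 0.185, against 0.168). All 10 lower genes encode large-subunit proteins (20% of that subunit's tested genes, against 0% in the small one): Mrpl14, Mrpl24, Mrpl11, Mrpl2, Mrpl4, Mrpl21, Mrpl38, Mrpl58, Mrps18a and Mrpl37. Some of them are named for these p-values, after their values were seen. With an offset for transcript length and GC content the same threshold gave 4 lower genes (Mrpl11, Mrpl24, Mrpl51 and Mrpl58; 6.19% of all genes were lower) and 4 higher ones (Mrpl13, Mrpl22, Mrps10 and Mrps36; 5.95% of all genes were higher). Of the 10 genes listed, 3 were still under it (Mrpl11, Mrpl24 and Mrpl58), and the higher genes belong to the large subunit, the small subunit and neither.

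Most point estimates lay below 0 on the TMM scale. The log2 fold change was negative for 55 of 77 genes (71.4%, against 50.9% of all genes), and its median was -0.15 against -0.0067 over all tested genes; with scaling by library totals alone it was negative for 41 of 77 with a median of -0.0064. All genes together had a median of 0.14 under that scaling, so the distance between the family and all genes was -0.14 with TMM and -0.15 with library totals. Values of single genes given below with library totals alone stand beside this median of 0.14. The quartiles of the family on the TMM scale were -0.27 and 0.04, and its range ran from -0.74 to 0.43. The 95% confidence interval lay within 1 log2 unit of 0 for 74 of 77 genes, against 9386 of all 12885 tested genes. It lay within 1.5-fold for 50 of 77, against 5818 of 12885. Mrpl14, Mrps18b and Mrps23 had intervals that reached past 1 log2 unit.

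Summed over the family and scaled by TMM, the genes held 780, 736 and 782 CPM in irradiated libraries and 835, 852 and 822 CPM in untreated libraries. All 3 irradiated values lay below all 3 untreated ones, with means of 766 ± 25.9 CPM in irradiated and 836 ± 15.3 CPM in untreated libraries (SD, n = 3 each) and a ratio of 0.916. As a share of all counts the ratio was 1.02 and the groups overlapped, with means of 0.0808% ± 0.00575 in irradiated and 0.0795% ± 0.00266 in untreated libraries. The sum of large-subunit genes was 530 ± 20.2 CPM in irradiated and 583 ± 11.5 CPM in untreated libraries on the TMM scale, and that of small-subunit genes was 232 ± 7.19 CPM in irradiated and 249.98 ± 4.15 CPM in untreated libraries. In a whole gland, fewer cells of a type and less RNA per cell cannot be told apart.

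The library with the lowest median was the one that stood apart. Relative to the mean of the untreated libraries on the TMM scale, the median gene was at -0.12, -0.18 and -0.09 log2 units in irradiated samples 1, 2 and 3. It was at -0.02, 0.02 and -0.03 in untreated samples 1, 2 and 3. In irradiated sample 2, 58 of 77 genes lay below the untreated mean, against 51 in irradiated sample 1 and 46 in irradiated sample 3. The same count was 41, 34 and 43 in untreated samples 1, 2 and 3. The median over all tested genes lay between -0.0017 and 0.0092 in every library. Without irradiated sample 2 the median over the family was -0.12, with 52 of 77 genes negative. The part that its lower alignment rate has in these values was not tested.

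**Figure D3:**
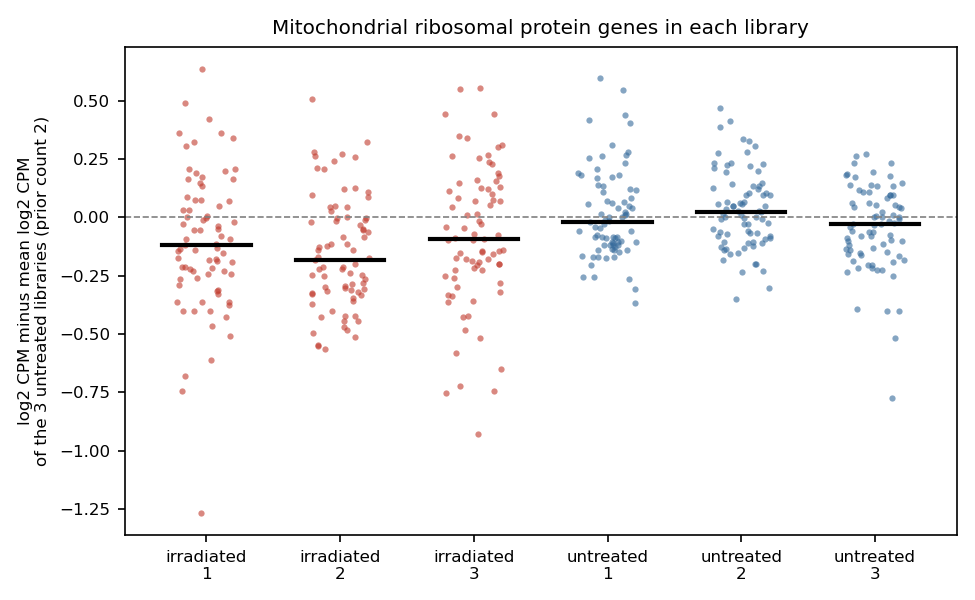
Each point is 1 of 77 genes in 1 library, as log2 CPM (TMM scale, prior count 2) minus the mean of the 3 untreated libraries; black bars are medians. The irradiated medians are -0.12, -0.18 and -0.09 and the untreated ones -0.02, 0.02 and -0.03. With library totals alone the family's median log2 fold change is -0.0064, against 0.14 over all tested genes.

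In 18 of 77 genes every irradiated library lay below every untreated one (23.4%, against 10.6% of all tested genes). In 3 of 77 every irradiated library lay above (3.9%, against 10.6%). The large subunit held 15 of the 18 lower genes (30% of its 50) and 1 of the 3 higher ones. The small subunit held 3 (11.5% of its 26) and 1, and Mrps36 was the remaining higher gene. The log2 fold change was negative for 37 of 50 large-subunit genes (median -0.15) and for 18 of 26 small-subunit genes (median -0.13). With library totals alone the medians were -0.015 (large) and 0.0067 (small), where all tested genes had a median of 0.14. With an offset for transcript length and GC content they were -0.050 (large) and -0.12 (small). Classed by whether the protein takes the place of a bacterial ribosomal protein, genes with bacterial relatives (34 of 46 negative, median -0.16) and genes found in mitochondria only (21 of 30, median -0.14) lay close together on the TMM scale. No difference between these classes was tested.

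Mrpl14 had the smallest p. The protein is the relative of bacterial L14 and sits on the face of the large subunit that meets the small one. It had 75, 49 and 58 counts in irradiated libraries and 99, 118 and 109 in untreated libraries. Scaled by TMM these were 4.98, 5.88 and 5.00 CPM in irradiated and 8.13, 10.3 and 7.26 CPM in untreated libraries, so the groups did not overlap. The resulting log2 fold change was -0.70 (SE 0.20), with a 95% interval of -1.12 to -0.28 and an adjusted p of 0.0983 (edgeR). Over the 19 settings run its adjusted p ranged between 0.0479 (no filter on low counts, the only call of any member) and 0.536, and its estimate between -0.81 and -0.39. Of its exon bases, 11.2% overlap Tmem63b on the opposite strand.

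Other large-subunit proteins with bacterial relatives stood lower with smaller distances. Mrpl11, which forms the base of the stalk where translation factors bind, had 8.84, 8.88 and 7.58 CPM in irradiated and 11.1, 12.3 and 10.9 CPM in untreated libraries. This gave a log2 fold change of -0.44 (SE 0.16); edgeR's adjusted p was 0.183. Mrpl24, the relative of bacterial L24, had 12.2, 11.6 and 11.6 CPM in irradiated and 17.2, 16.3 and 13.7 CPM in untreated libraries, at -0.41 (SE 0.14) and an adjusted p of 0.163 (edgeR). In both genes all 3 irradiated libraries lay below all 3 untreated ones. Mrpl2, whose bacterial relative lies next to the peptidyl transferase centre, was at 10.1 ± 1.87 CPM in irradiated glands and 13.7 ± 1.71 CPM in untreated glands, a log2 fold change of -0.43 (SE 0.17). Mrpl4, whose bacterial relative lines the exit tunnel, was at 11.3 ± 0.222 CPM in irradiated glands and 14.5 ± 0.965 CPM in untreated glands, a log2 fold change of -0.36 (SE 0.14); adjusted p was 0.210 for Mrpl2 and 0.221 for Mrpl4 (edgeR). Mrpl21, the relative of bacterial L21, was at 7.09 ± 0.527 CPM in irradiated glands and 9.54 ± 0.182 CPM in untreated glands, a log2 fold change of -0.42 (SE 0.17); edgeR's adjusted p was 0.240. The groups did not overlap in any of these 3 genes. Mrpl24 shares 26.3% of its exon bases with Rrnad1 on the opposite strand.

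Core proteins of the stalk and of the catalytic region were not all low. Mrpl10 and Mrpl12 build the stalk itself. Mrpl10 was at 13.3 ± 1.05 CPM in irradiated glands and 12.1 ± 1.80 CPM in untreated glands, a log2 fold change of 0.14 (SE 0.15), and Mrpl12 was at 15.4 ± 0.686 CPM in irradiated glands and 16.2 ± 1.14 CPM in untreated glands, a log2 fold change of -0.071 (SE 0.13) that turned to 0.08 with library totals alone. Mrpl3, near the peptidyl transferase centre in bacteria, was at 0.11 (SE 0.17) on the log2 scale, and Mrpl1, of the mobile stalk near the tRNA exit, at 0.34 (SE 0.24). The libraries of the groups overlapped in all 4 genes. Mrpl23 and Mrpl30, relatives of bacterial L23 and L30, were at -0.33 (SE 0.20) and -0.25 (SE 0.12); only Mrpl30 had groups that did not overlap. Adjusted p ran from 0.334 to 0.851 over these 6 genes (edgeR).

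Mrpl22, whose bacterial relative lines the exit tunnel, was the large-subunit gene with the highest estimate. It had 5.18, 5.04 and 5.95 CPM in irradiated and 3.53, 4.10 and 4.39 CPM in untreated libraries. The lowest irradiated library stood above the highest untreated one. The log2 fold change was 0.43 (SE 0.23) and the adjusted p 0.411 (edgeR).

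Log2 fold changes of the 20 large-subunit genes found in mitochondria only ran from -0.39 to 0.23, with 15 negative on the TMM scale. Mrpl58, also called ICT1, is a peptidyl-tRNA hydrolase that frees stalled ribosomes. It had 10.4, 8.28 and 9.82 CPM in irradiated and 13.3, 13.3 and 10.6 CPM in untreated libraries, without overlap. The fold change on the log2 scale was -0.37 (SE 0.16), and edgeR's adjusted p was 0.279. Mrpl38, of the central protuberance, was at 15.3 ± 0.0864 CPM in irradiated glands and 18.9 ± 1.60 CPM in untreated glands, a log2 fold change of -0.31 (SE 0.13). Mrpl37 was at 15.3 ± 1.09 CPM in irradiated glands and 18.7 ± 2.34 CPM in untreated glands, a log2 fold change of -0.28 (SE 0.13). The libraries of the groups did not overlap in either gene. Mrpl41, Mrpl42 and Mrpl44, the last with an RNase III-like fold, lay near 0 at -0.038 (SE 0.26), -0.054 (SE 0.14) and -0.032 (SE 0.19) on the TMM scale, and at 0.10, 0.09 and 0.11 with library totals alone. Mrpl52 was at -0.26 (SE 0.15) and Mrpl54 at -0.14 (SE 0.17). Mrps30, which carries a small-subunit name but sits in the large subunit, was at -0.15 (SE 0.19). Adjusted p ran from 0.252 to 0.968 over these genes (edgeR).

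Mrps18a, Mrps18b and Mrps18c are all named for bacterial S18. Mrps18c takes its place in the small subunit; Mrps18a sits in the large subunit and Mrps18b elsewhere in the small one, and both are counted here with the genes found in mitochondria only. Mrps18a had 11.7, 10.3 and 12.2 CPM in irradiated and 14.1, 14.1 and 14.1 CPM in untreated libraries. Mrps18b had 2.92, 3.48 and 3.36 CPM in irradiated and 6.24, 3.67 and 4.13 CPM in untreated libraries. Mrps18c had 4.39, 3.72 and 2.93 CPM in irradiated and 4.35, 5.93 and 3.99 CPM in untreated libraries. The groups did not overlap in Mrps18a and Mrps18b and overlapped in Mrps18c. The log2 fold changes were -0.30 (SE 0.14) for Mrps18a, -0.53 (SE 0.27) for Mrps18b and -0.36 (SE 0.26) for Mrps18c, with adjusted p of 0.329, 0.381 and 0.576 (edgeR). Antisense and overlapping models cover 30.5% of the exon bases of Mrps18b (Gm16279) and 23.2% of those of Mrps18c (Gm43511).

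Small-subunit genes held both the lowest and some of the highest estimates. Mrps23, a small-subunit protein found in mitochondria only, had the lowest estimate, -0.74 (SE 0.57), but rested on 5, 7 and 10 counts in irradiated and 16, 17 and 8 counts in untreated libraries, which overlapped. Mrps10, the relative of bacterial S10, had 8.84, 8.52 and 8.70 CPM in irradiated and 7.06, 7.16 and 6.86 CPM in untreated libraries, without overlap. This gave a log2 fold change of 0.31 (SE 0.17); edgeR's adjusted p was 0.423. Mrps27, a protein with pentatricopeptide repeats that bind RNA, was at 0.34 (SE 0.30) with overlapping groups. Mrps12, of the decoding centre, was at -0.070 (SE 0.18) on the TMM scale and 0.08 with library totals alone; Mrps6 was at 0.18 (SE 0.23), Mrps21 at -0.27 (SE 0.14) and Mrps25 at 0.020 (SE 0.21). Adjusted p ran from 0.380 to 0.978 over these genes, Mrps23 and Mrps27 included (edgeR).

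Mrps36 was named as a ribosomal protein but is known as a subunit of the 2-oxoglutarate dehydrogenase complex of the citric acid cycle. It had 4.39, 4.44 and 3.71 CPM in irradiated and 2.79, 3.14 and 3.33 CPM in untreated libraries. All 3 irradiated libraries lay above all 3 untreated ones. The log2 fold change, 0.43 (SE 0.27), was the highest of the 77 genes, with an adjusted p of 0.482 (edgeR).

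Mrpl46 and Mrps11 are the only 2 of these genes that lie within 100 kb of each other. They stand head to head on chromosome 7 with exons that overlap, Mrpl46 at chr7:78775236-78783531 on the minus strand and Mrps11 at chr7:78783119-78792989 on the plus strand (mm10). Their log2 fold changes were -0.39 (SE 0.21) and -0.38 (SE 0.25), with overlap between the groups in Mrps11 and none in Mrpl46. The pair was chosen for its position.

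**Figure D4:**
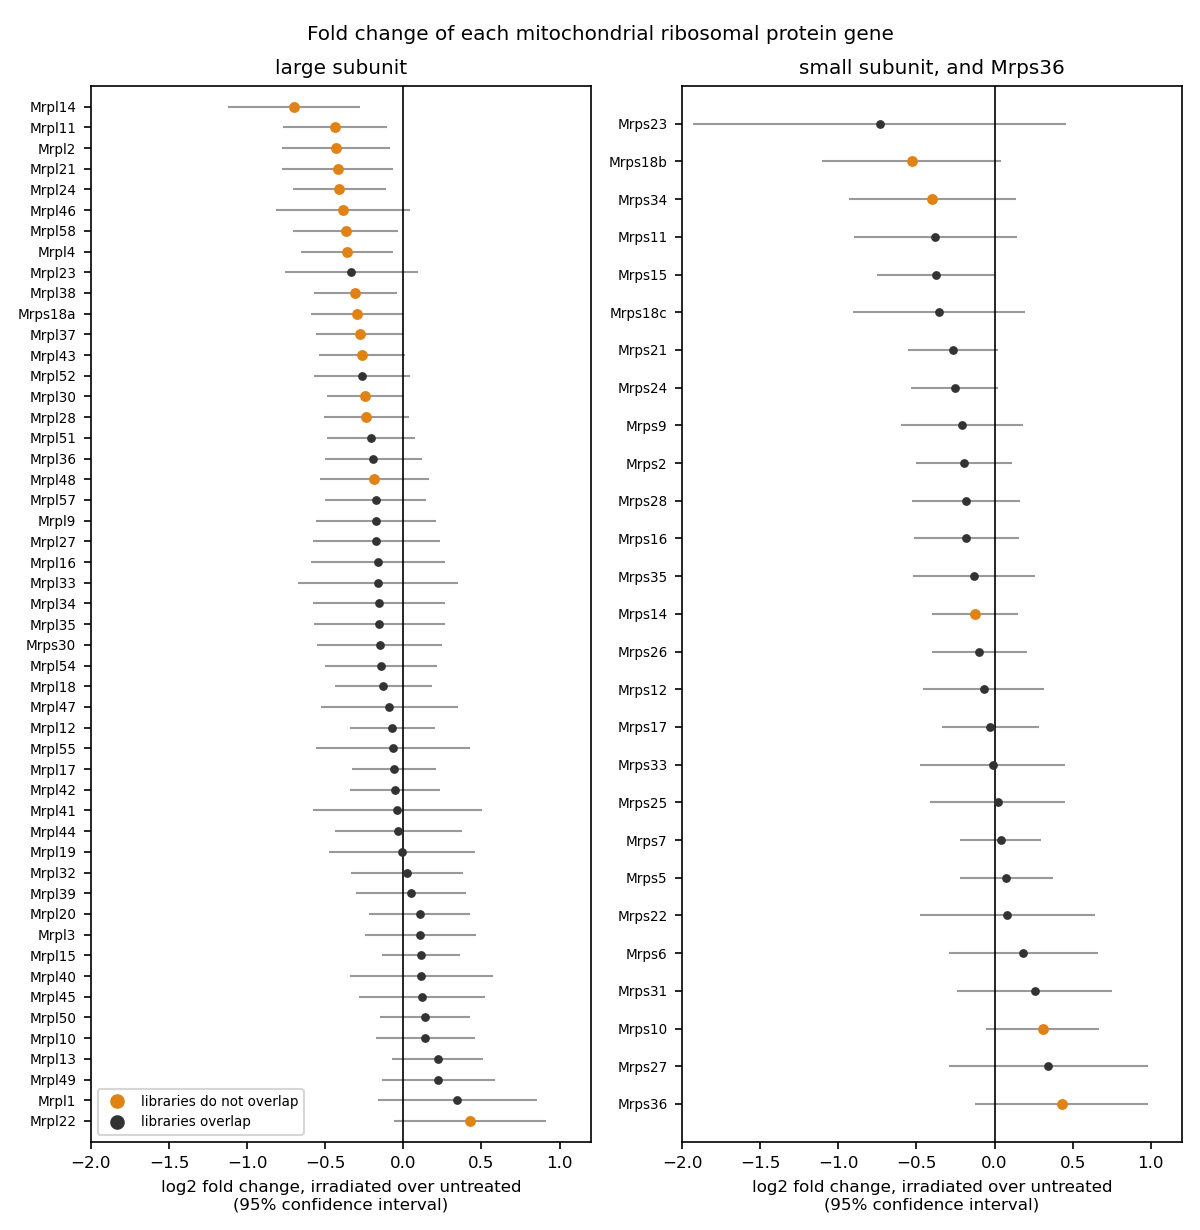
Log2 fold change of irradiated over untreated glands (edgeR, TMM scale) with 95% confidence intervals for 50 large-subunit genes and, at right, 26 small-subunit genes and Mrps36. Of 77 estimates 55 lie below 0 on this scale, and 0 pass an adjusted p of 0.05 (edgeR). With library totals alone 41 lie below 0, where the median over all tested genes is 0.14. The 21 genes whose libraries do not overlap are in orange.

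Fold changes ran with transcript length over all genes, and mitochondrial ribosomal proteins have short transcripts (median 1316 bases, against 2939 over all tested genes). In the shortest quintile of all tested genes, with transcripts of 57 to 1578 bases, stood 47 of the 77. There the family's median log2 fold change was -0.19 with 80.9% negative, against -0.17 with 72.2% negative over all 2577 genes of that quintile. Non-overlap below the untreated libraries was found for 29.8% of the 47 genes, against 21.5% of all genes in that quintile. Among genes of the next quintile the family's 9 genes had a median of 0.12 against -0.06 over all genes there, and in the middle quintile its 9 genes had -0.18 against -0.00073. In the 2 longest quintiles the family's 8 and 4 genes had medians of -0.011 and -0.017, against 0.053 and 0.10 over all genes there. In the quintile with the highest GC content, 13 of 13 genes were negative with a median of -0.30, against 62.4% and -0.09 over all genes there. From the lowest GC quintile upward, the family's other 4 medians were -0.035, -0.017, -0.17 and -0.18. Those of all genes were 0.057, 0.042, -0.0079 and -0.044.

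When each library's trend on length and GC content was taken out as an offset, the family's median log2 fold change was -0.05, with 44 of 77 genes negative, against -0.02 over all tested genes. With this offset Mrpl14 was at -0.41 (adjusted p 0.439, edgeR) and Mrpl11 at -0.49 (adjusted p 0.169). Mrpl22 was at 0.63 (adjusted p 0.237), Mrps10 at 0.46 (adjusted p 0.259) and Mrps36 at 0.63 (adjusted p 0.332), all 3 farther from 0 than without it (edgeR). The offset called 0 of 77 genes. The Spearman correlation of log2 fold change with transcript length was 0.25 over the 77 genes and 0.30 over 12867 tested genes with a length, and with GC content it was -0.42 and -0.17. Genes share the libraries and are not independent replicates.

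**Figure D5:**
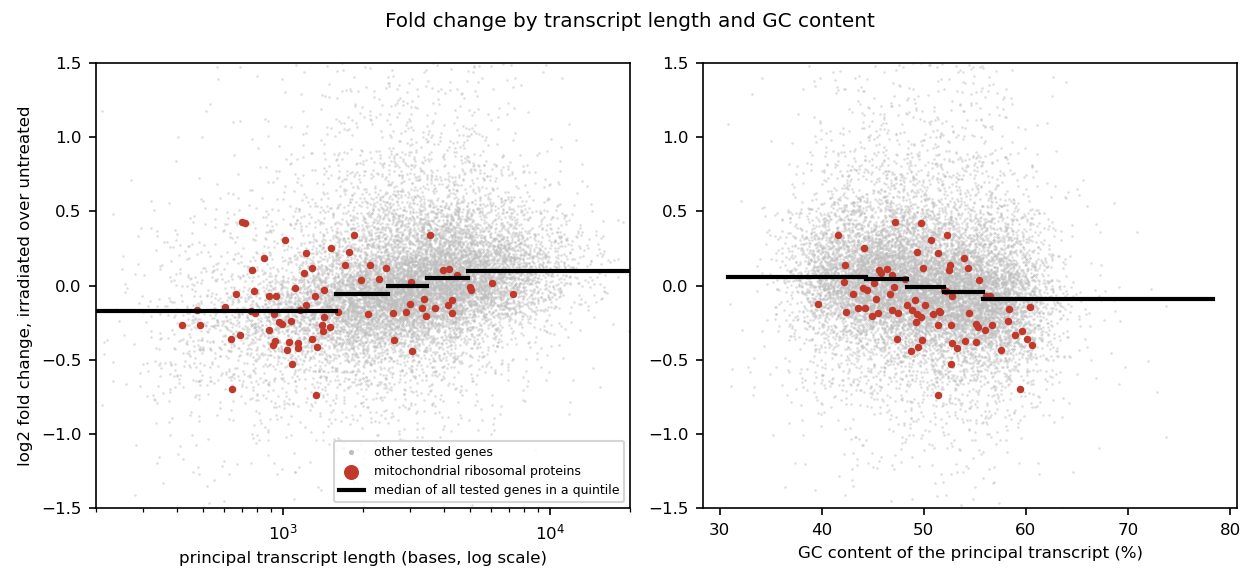
Log2 fold change (irradiated over untreated, edgeR) against principal transcript length (bases, log axis) and GC content (%) for the mitochondrial ribosomal protein genes (red) and other tested genes (grey), with the median of all tested genes in each quintile as a black line; genes past the axis limits are not drawn. The family's median in the shortest quintile is -0.19 against -0.17 for all genes there.

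Genes with the ETS letters had a median log2 fold change of -0.18 (25 genes), against -0.07 for those without (43 genes). For the YY1 letters the medians were -0.22 (8 genes) and -0.13 (60 genes), and for the NRF1 letters 0.02 (3 genes) and -0.15 (65 genes). The NRF1-matched Mrpl32 and Mrpl39, printed above, were at 0.024 (SE 0.17) and 0.048 (SE 0.17). Mrpl43, with the ETS letters at 2 places, was at -0.27 (SE 0.13), and Mrpl36, with the YY1 letters, at -0.19 (SE 0.15). These medians are descriptions over genes that share libraries and differ in length.

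Other genes of mitochondrial translation also gave 0 calls with edgeR, DESeq2 and limma-voom, and a mixture of directions. Counts at an unadjusted p under 0.05 are given by list (edgeR). Of all tested genes, 7.46% were lower and 7.51% higher at that p, so counts of a few genes per list are not read as results about the lists. Of the ribosomal proteins with other names, 5 were tested with a median log2 fold change of -0.06 (-0.0077 with the length and GC offset) and 1 under that p, lower; Dap3, a GTPase of the small subunit, was at -0.056 (SE 0.14) and Aurkaip1, also of the small subunit, at -0.30 (SE 0.13). Translation factors (15 tested, median -0.10 and -0.19 with the offset, 1 higher and 3 lower under that p) included Tufm, the elongation factor Tu, at 0.023 (SE 0.13). Oxa1l, which inserts nascent proteins into the inner membrane, was at 20.1 ± 2.36 CPM in irradiated and 26.9 ± 1.23 CPM in untreated glands, -0.41 (SE 0.12), with an adjusted p of 0.0938 (edgeR). Tsfm, the nucleotide exchange factor of Tufm, and Gfm1, elongation factor G, were chosen after their values were seen and pointed in opposite directions at -0.63 (SE 0.21) and 0.37 (SE 0.14). Assembly factors and rRNA modifiers (28 tested, 0 under that p) had a median of 0.0044 (0.035 with the offset), with Grsf1, an RNA-binding protein of mitochondrial RNA granules, at -0.14 (SE 0.11) and C1qbp, a matrix protein needed for translation, at 0.033 (SE 0.13).

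The mitochondrial aminoacyl-tRNA synthetases (19 tested, 5 negative, 2 lower under that p) had a median of 0.14, and of 0.057 with the length and GC offset. Lars2, the leucyl enzyme, was by far the most abundant of them in counts, at 1059.6, 932 and 1178 CPM in irradiated and 1333, 1257 and 1561 CPM in untreated libraries. These did not overlap, with a log2 fold change of -0.39 (SE 0.14) and an adjusted p of 0.194 (edgeR). Iars2, the isoleucyl enzyme and the next most abundant, was at 28.9 ± 1.71 CPM in irradiated and 27.8 ± 4.01 CPM in untreated glands. Its log2 fold change was 0.061 (SE 0.12). Whether all reads counted for Lars2 came from the messenger RNA of the leucyl enzyme was not tested. Genes of mitochondrial DNA replication and transcription (10 tested, 1 lower under that p) had a median of -0.18, with Polg, the mitochondrial DNA polymerase, at 0.13 (SE 0.13) and Tfb2m, a transcription initiation factor, at -0.12 (SE 0.17). The 2 mitochondrial ribosomal RNAs had log2 fold changes of -0.27 (SE 0.13) for mt-Rnr1 and -0.22 (SE 0.14) for mt-Rnr2, with overlapping groups.

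Regulators of nuclear genes for mitochondria (11 tested, 1 higher under that p) had a median of 0.01, which turned to -0.072 with the length and GC offset. Yy1 was at 35.9 ± 2.75 CPM in irradiated and 36.2 ± 1.28 CPM in untreated glands, a log2 fold change of -0.012 (SE 0.11), and Gabpb2, a partner of GABPA, was at 0.054 (SE 0.11). Ppargc1a, a coactivator of mitochondrial biogenesis named after its values were seen, had 23.8, 20.5 and 26.3 CPM in irradiated and 13.6, 20.2 and 17.2 CPM in untreated libraries. The groups did not overlap at a log2 difference of 0.47 (SE 0.14); edgeR's adjusted p was 0.115.

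Markers of cell types differed between the groups or between libraries. Of all tested genes, 7.46% were lower and 7.51% higher at an unadjusted p under 0.05 (edgeR), and 0.349% and 0.652% were called. Of the 6 acinar markers, 5 had a negative log2 fold change (median over the 6 markers -0.28), 4 of them at an unadjusted p under 0.05 and 1 called lower, Car6, a secreted carbonic anhydrase, at 8802 ± 2237 CPM in irradiated and 15243 ± 1089 CPM in untreated glands (-0.79, adjusted p 0.0329, edgeR). Skeletal muscle, a tissue rich in mitochondria, had 6 of 6 markers with a negative log2 fold change (0 called by edgeR, 1 at an unadjusted p under 0.05) and a summed level of 151 to 472 CPM in irradiated and 471 to 592 CPM in untreated libraries. The lowest muscle sum, 151 CPM, was in irradiated sample 3, where the median mitochondrial ribosomal protein gene was at -0.09, against -0.12 and -0.18 in irradiated samples 1 and 2. T cell markers (2 of 5 called higher) summed to 15.9 to 22.7 CPM in irradiated and 0.611 to 6.41 CPM in untreated libraries. B cell markers (1 of 4 called higher) summed to 20.2 to 21.9 CPM in irradiated and 0.349 to 10.4 CPM in untreated libraries. Duct markers had a negative log2 fold change in 7 of 7 (median -0.087, 0 called by edgeR, 2 lower at an unadjusted p under 0.05). They summed to 438 to 552 CPM in irradiated and 555 to 626 CPM in untreated libraries. Kcnn4 carried the largest part of this sum, at 267 ± 52.9 CPM in irradiated and 332 ± 26.7 CPM in untreated glands (log2 fold change -0.32). Krt7 was at -0.48 and Krt19 at -0.17, and Krt8, Slc4a4, Elf5 and Foxi1 lay between -0.087 and -0.062. Whether Kcnn4 transcripts came from duct cells or from other cells such as acinar cells was not tested, so the sum does not measure duct cells alone. Endothelial markers (0 of 3 negative) summed to 55.8 to 70.7 CPM in irradiated and 46.5 to 54.0 CPM in untreated libraries. Macrophage markers (4 of 4 negative) summed to 46.3 to 51.4 CPM and 51.6 to 60.0 CPM in the same order. The sums overlapped for fibroblast markers (3 of 3 negative) and white fat markers (3 of 4 negative), and edgeR called 0 in these 4 lists. Brown fat markers summed to 0.600 to 2.59 CPM in irradiated and 0.266 to 1.83 CPM in untreated libraries, and none of the markers listed was at 0 in all libraries. The part of these cell types in the values of the mitochondrial ribosomal proteins was not tested.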

How the data were processed

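Parotid RNA of 6 samples (3 irradiated, 3 untreated) was sequenced from libraries made with a stranded kit for total RNA, per the labels. The deposited values are raw whole-number read counts per Ensembl gene. The submitters' processing notes name bcl2fastq, HISAT2, HTSeq and mm10; versions, annotation release and strand setting are not given in the sources used here. Rows that name no gene held 32.4% to 40.7% of reads and were left out.

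Symbols, transcript lengths and overlaps came from GENCODE M21; 52489 of 52636 genes matched. Genes passed filterByExpr (minimum count 10), were scaled by TMM and tested with edgeR 4.0.16 (robust quasi-likelihood, R 4.3.3) in 1 fit over 12885 genes with Benjamini-Hochberg adjustment. DESeq2 1.42.0, limma 3.58.1 (voom) and an offset fitted with mgcv 1.9.3 were alternatives. Each edgeR standard error is the fold change over the root of F. TPM was computed here from the deposited counts and principal transcript lengths. The tests were tried on simulated counts. Medians rest on 75 to 144 counts per gene, which limits precision for the least abundant genes.

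The members and lists were chosen with earlier results of these data known. Members named were those with extreme estimates or levels, the smallest p among non-overlapping genes, and some chosen for their role; from each companion list the 2 most abundant were named. No 2 libraries agreed within sampling noise (chi-square per degree of freedom at least 13.7).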

Additional observations from a re-analysis of the deposited data

How the results depend on the processing

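Members called stayed at 0 in 18 of 19 settings, including each library left out; with no filter on low counts 1 was called lower (Mrpl14, -0.71, adjusted p 0.0479, edgeR). Over the 19 settings 34 of 77 members were lower in all, 13 higher in all and 30 differed in sign. Companion genes called higher were 1 (Ppargc1a) with no filter and 1 with library totals alone, and 0 otherwise.

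All genes called were 84 higher and 45 lower; they were 21 and 5 without robust shrinkage, 121 and 70 with DESeq2, 279 and 239 with no filter, and 259 and 22 with library totals alone. Leaving out 1 library gave 31 to 83 higher and 14 to 72 lower: 31 and 14 without irradiated sample 1, and 72 lower without irradiated sample 3, 29 without untreated sample 1 and 21 without untreated sample 2. The members' median of -0.15 ranged from -0.16 to -0.11 with 1 library left out, its distance from all genes from -0.15 to -0.10, the large subunit's from -0.17 to -0.12 and the small subunit's from -0.17 to -0.09. With library totals alone the medians were -0.0064 (members), -0.015 (large) and 0.0067 (small), where all tested genes had a median of 0.14. The length and GC offset gave -0.053 (members), -0.036 (members minus all genes), -0.050 (large) and -0.12 (small). With the longest transcript, an alternative chosen after seeing the data, it gave -0.095, -0.076, -0.10 and -0.11 in the same order. Levels from the longest transcript and the promoters of tested genes as a second set were also added after seeing the data.

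Replicate numbers are shared by the groups, but same-numbered samples did not deviate together (correlations 0.020, -0.11 and -0.11), so the numbers were not taken as pairs. With the replicate block 39 genes were called higher and 14 lower, 0 of them members, and the members' median was -0.15. With the replicate block and the length and GC offset the counts were 43 and 13. The medians were then -0.049 (members), -0.032 (members minus all genes), -0.046 (large) and -0.11 (small).

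Among the values of named members under the alternatives, 525 kept their direction and side of the threshold and 48 changed sign, all in genes whose estimate was within 0.27 of 0. Those 48 were, with library totals alone, Mrpl12 0.075, Mrpl19 0.14, Mrpl41 0.097, Mrpl42 0.095, Mrpl44 0.11, Mrps12 0.075; with the count filter of 50, Mrpl19 0.013; with limma-voom, Mrpl41 0.078; with the length and GC offset, Mrpl12 0.062, Mrpl41 0.16, Mrpl42 0.15, Mrpl44 0.058, Mrpl52 0.068, Mrpl54 0.17, Mrps12 0.15, Mrps21 0.019, Mrps25 -0.10; with the offset from the longest transcript, Mrpl12 0.080, Mrpl41 0.18, Mrpl44 0.080, Mrpl54 0.18, Mrps12 0.16, Mrps21 0.032, Mrps25 -0.093; and with the replicate block and the offset, Mrpl12 0.065, Mrpl41 0.19, Mrpl42 0.15, Mrpl44 0.061, Mrpl52 0.058, Mrpl54 0.19, Mrps12 0.15, Mrps21 0.013, Mrps25 -0.095. With 1 library left out the ranges were Mrpl19 -0.094 to 0.11, Mrpl3 -0.029 to 0.21, Mrpl41 -0.28 to 0.29, Mrpl42 -0.18 to 0.067, Mrpl44 -0.15 to 0.076, Mrpl54 -0.31 to 0.014, Mrps25 -0.062 to 0.082. The causes were not tested.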
